A study of Mus musculus with 2 samples.

Results

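Kinesins are motor proteins that hydrolyse ATP and move along microtubules, most of them towards the plus end. Some carry vesicles and organelles through the cytoplasm, some build and maintain cilia, and others slide, depolymerise or bundle the microtubules of the mitotic spindle. Embryonic stem cells divide rapidly, which calls on the spindle motors. The kinesin motor genes described here were chosen by name: every row of the expression table whose symbol is Kif followed by digits and at most 1 letter. The rule found 35 genes among 17817 symbols, on 15 chromosomes, each on a single row. Of these, 33 averaged at least 1 CPM over the 2 libraries, CPM being read equivalents scaled to 1000000 per library. Kif7, Kif2b, Kif25, Kif26b and Kif28 had no row under those symbols and were not analysed here.

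Both libraries were made from mouse embryonic stem cells of mixed 129SV/C57BL/6 strain at passages 10 to 12, with no specific treatment. The comparison was between 1 wild-type library and 1 Setd2 KO library, Setd2 being the histone H3 lysine 36 methyltransferase gene. Per the labels' protocols the cells were grown on feeder cells and separated from them on gelatin before collection. The way Setd2 was disrupted and the number of clones behind each library are not given in the sources used here. With 1 library per genotype there was no replicate, so no difference below was tested, and each describes these 2 libraries only. Intervals are exact binomial 95% intervals on read equivalents and cover counting error only.

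The wild-type library held 56129838 read equivalents and the knockout library 52041677. Setd2 itself was at 452 CPM in wild-type cells and 174 CPM in knockout cells, 38.5% of the wild-type level (37.6 to 39.4%). The libraries also differed in ways that the Setd2 label does not name. The Y-linked gene Ddx3y was at 0.445 CPM in wild-type cells and 176 CPM in knockout cells. The 719 genes of chromosome 8 had a median log2 fold of -0.35, against medians from 0.00 to 0.13 for the other autosomes. No kinesin gene of the set lay on chromosome 8, a count of 0. Stem cell markers were abundant in both libraries, with Pou5f1 at 558 and 544 CPM and Sox2 at 458 and 417 CPM. Of 12 such markers 10 were below 0 on the log2 scale, against 43.6% of all genes, and the summed level was 4426 and 3917 CPM. At least 2-fold lower was 1 of the 12, against 2.11% of all genes. This was Zfp42, which lies on chromosome 8, at 283 and 68.1 CPM.

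Most kinesin genes differed little between the 2 libraries, in a share near that of all genes, and a few members stood well apart. Of the 33 genes over the floor, 3 were higher by 2-fold or more in knockout cells, namely Kif1a, Kif17 and Kif6, against 1.76% of all 13523 genes compared. Kif6 passed the floor through its knockout level alone. Lower by 2-fold or more were 0 of 33, against 2.11% of all genes. The fold here is log2((knockout + 0.5)/(wild type + 0.5)) on CPM, which understates the change of low genes. Above 0 were 25 of the 33 kinesin genes, against 56.4% of all genes, and below 0 were 8, against 43.6%. Their median log2 fold was 0.12, against 0.05 for all genes. Under other ways of scaling the libraries it was 0.0575 to 0.0837, since these lower the fold of each gene by a like amount. The median of all genes was then -0.0085 to 0.0170. Within 1.2-fold were 19 of 33, or 57.6%, against 53.1% of all genes. The summed level of the 35 genes was 3731 CPM in wild-type cells and 4238 CPM in knockout cells, 114% of the wild-type sum.

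**Figure D1:**
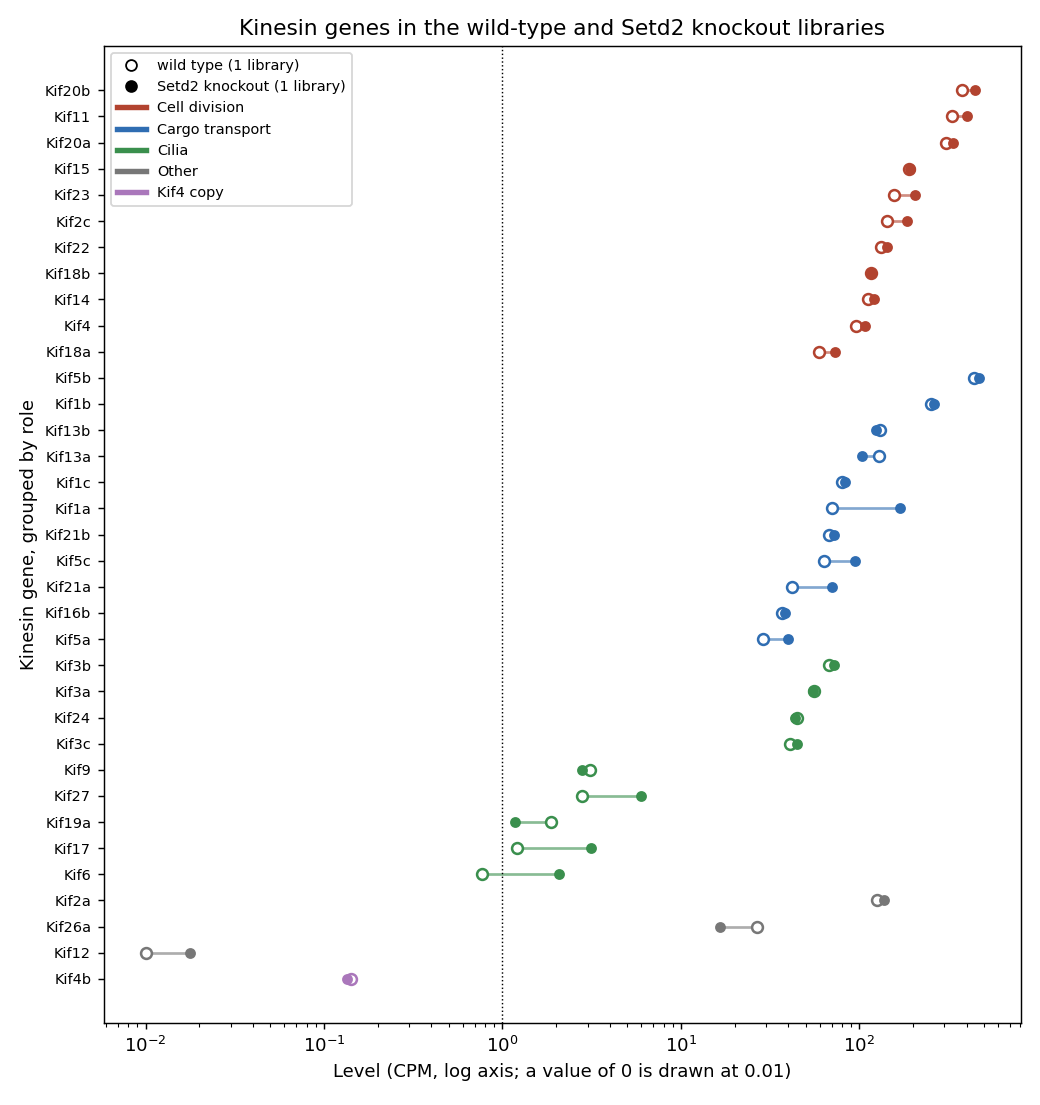
Level of each of the 35 kinesin genes in CPM (log axis) in the wild-type library (open circles) and the Setd2 knockout library (filled circles), grouped by role, with the floor of 1 CPM as a dotted line. The circles overlap for most genes and stand apart for Kif1a, Kif21a, Kif5c, Kif27, Kif17 and Kif6, higher in the knockout library, and for Kif26a and Kif19a, lower in it.

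The genes that segregate chromosomes and complete cell division made up most of the kinesin RNA. After division by exon length, the 11 genes of this group accounted for 67.3% of the summed kinesin level in the wild-type and 67.9% in the knockout library. Their unscaled levels ran from 59.5 to 377 CPM in the wild-type library and from 72.7 to 447 CPM in the knockout library. Each was within 2-fold, as were most genes, with 1.76% of all genes at least 2-fold higher and 2.11% lower. Slightly higher in the knockout library were 10 of 11, against 56.4% of all genes. The median log2 fold of the group was 0.18, against 0.05 for all genes. Kif15, counted among the 10, was slightly lower instead under each of the other ways of scaling the libraries, at -0.0402 to -0.0140. For 9 of the 11 the counting interval of the ratio lay above 1, as it did for 41.8% of all genes. At these depths most genes have an interval that leaves out 1, and only 26.8% of all genes had one that held it.

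Kif23, a central spindle motor needed for cytokinesis, showed the largest ratio of the division group. It was at 157 CPM in wild-type cells and 205 CPM in knockout cells, a ratio of 1.30 (1.27 to 1.34). Kif2c, which depolymerises microtubules at centromeres to correct faulty attachments, was at 143 and 184 CPM, a ratio of 1.28 (1.25 to 1.32). Kif18a, which dampens the oscillations of chromosomes at the metaphase plate, was at 59.5 and 72.7 CPM. Its ratio of 1.22 (1.17 to 1.28) stood beside 0.991 (0.957 to 1.03) for its relative Kif18b.

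Kif11, the motor that pushes spindle poles apart, was at 332 CPM in wild-type cells and 401 CPM in knockout cells. Its ratio was 1.21 (1.19 to 1.23). Of its 50 sampled exon windows 3 were counted as shared with other places, 1 of them not placed at its own locus. Kif15, which can take over part of the work of Kif11 in the spindle, was level at 190 and 193 CPM, with a ratio of 1.01 (0.987 to 1.04). The intervals of these 2 motors, which both act on spindle bipolarity, did not overlap. They cover counting error only, and just 26.8% of all genes had an interval that held 1.

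Kif20b, a cytokinesis motor, was at 377 and 447 CPM, with a ratio of 1.19 (1.16 to 1.21). Its relative Kif20a, which works at the central spindle, was at 305 and 335 CPM, with a ratio of 1.10 (1.07 to 1.12). Kif20a shares 32.3% of its exon bases with exons of Cdc23 on the opposite strand, and the use of strand in counting is unknown, so its level is uncertain. Kif14, which acts in cytokinesis, had a ratio of 1.09 (1.05 to 1.13). Kif22, a chromosome arm motor, had a ratio of 1.08 (1.05 to 1.12). Kif4, another chromosome arm motor, was at 95.6 and 108 CPM, with a ratio of 1.13 (1.09 to 1.17). Kif4 is X-linked, and its log2 fold of 0.18 stood beside a median of 0.17 for 506 X-linked genes. Exons of Pdzd11 on the opposite strand cover 15.1% of its exon bases.

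Ranked by level per kilobase of exon, Kif20a was the highest kinesin gene in both libraries, at 78.4 CPM per kb in wild-type cells and 86.0 CPM per kb in knockout cells. Kif11 was the next, at 68.9 and 83.3 CPM per kb. Kif20b followed at 67.7 and 80.4 CPM per kb, and Kif22 at 64.3 and 69.7 CPM per kb. The fifth was the transport motor gene Kif5b, at 59.1 and 63.2 CPM per kb. The order of these 5 genes was the same in both libraries, although with 1 library each the spread behind the order is unknown. The first rank is uncertain, since 32.3% of the exon bases of Kif20a are shared with exons of Cdc23 on the opposite strand. The rank of Kif5b is uncertain too, since 38% of its sampled exon windows were counted as shared with another place.

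**Figure D2:**
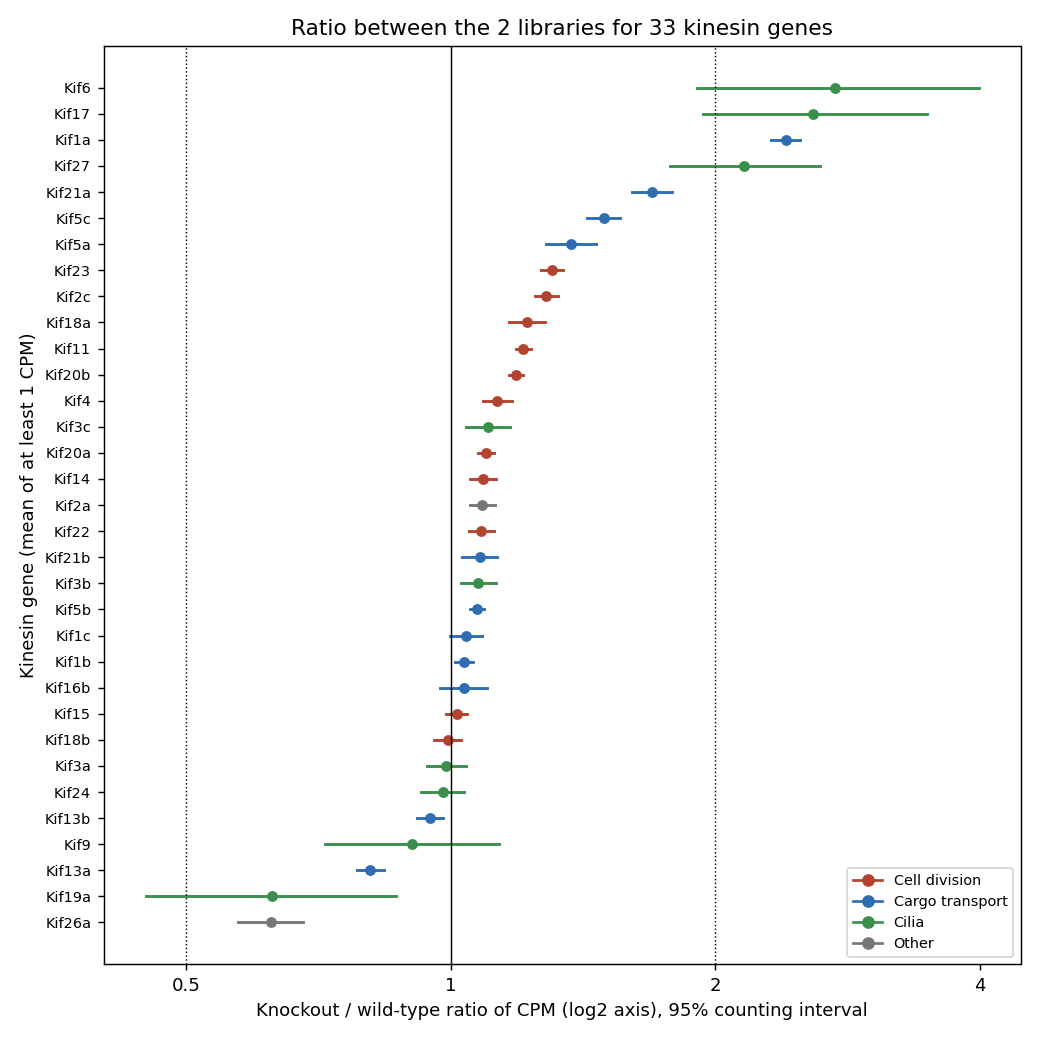
Knockout over wild-type ratio of CPM (log2 axis) for the 33 kinesin genes averaging at least 1 CPM, with 95% counting intervals, coloured by role; dotted lines mark 2-fold either way. Kif6, Kif17, Kif1a and Kif27 lie at the top with ratios from 2.16 to 2.73, and Kif19a and Kif26a at the bottom with 0.627 and 0.624.

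The promoters of the division group share a sequence feature that the naming rule did not use. Many genes of late cell cycle carry a cell cycle homology region, TTTGAA, close to the transcription start, often with CCAAT boxes upstream, where a repressor complex can bind in quiescent cells and early in the cycle. The RefSeq promoter table (GRCm38.p6, 250 bases before to 50 after each start) matched 28 of the 35 genes, with 32 promoters. TTTGAA on either strand was present in 9 of the 10 division promoters, or 90%, against 17.9% of all 32851 promoters. It was present in 1 of 9 promoters of cargo transport genes, the CpG-poor promoter of Kif1a, and in 1 of 9 of cilia genes, that of Kif27. CCAAT on either strand was in 6 of the 10 division promoters, against 37.4% of all promoters. The E2F-type sequence GGCGGGAA was in 0 of the 10, against 2.19% of all promoters. The windows of Kif14 and Kif2c are unlike the rest of the group, with 3 and 2 CpG pairs where the group's median was 25.5, so whether they lie at the start used in these cells is uncertain. Among division promoters with at least 10 CpG pairs, TTTGAA was in 7 of 8, against 9.62% of all promoters with as many. In Kif18b, Kif20b, Kif23 and Kif4 the TTTGAA match did not lie wholly before the start. A match describes these letters only.

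The 250 bases before the start are shown for Kif11 and Kif22, where both sequences lie near the start, with both motifs and their reverse complements in capitals.
Kif11 (chr19:37376132-37376381, plus strand): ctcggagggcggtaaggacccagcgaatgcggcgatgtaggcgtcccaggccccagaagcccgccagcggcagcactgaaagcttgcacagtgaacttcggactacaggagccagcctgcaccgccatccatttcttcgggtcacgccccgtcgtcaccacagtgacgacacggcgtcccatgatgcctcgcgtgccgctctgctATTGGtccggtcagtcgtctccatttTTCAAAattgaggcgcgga
Kif22 (chr7:127042421-127042670, minus strand): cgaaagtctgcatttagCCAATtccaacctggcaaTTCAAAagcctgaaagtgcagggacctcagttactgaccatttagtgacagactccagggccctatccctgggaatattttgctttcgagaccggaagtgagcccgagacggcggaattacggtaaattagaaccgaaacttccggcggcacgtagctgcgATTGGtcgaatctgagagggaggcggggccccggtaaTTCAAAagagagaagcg
In Kif11 the reverse complement of TTTGAA began 19 bases before the start and that of CCAAT 45 bases before it. In Kif22 these distances were 17 and 54 bases, so the pair has the same order and orientation in both genes. Kif22 has another pair further upstream, at 215 and 233 bases. Kif14 is the other division gene with both motifs before its start, and its pair differs. There both motifs read on the strand of the gene, TTTGAA 228 bases and CCAAT 92 bases before the start.

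Genes that work with these motors had small positive folds as well. Of 23 spindle and cytokinesis partners, 21 were above 0, against 56.4% of all genes. Beyond 2-fold were 0 of 23 in either direction, against 1.76% of all genes higher and 2.11% lower. Their median log2 fold was 0.23, against 0.05 for all genes. Birc5, of the chromosomal passenger complex that Kif20a brings to the central spindle, had the highest log2 fold at 0.50 (59.5 and 84.4 CPM). Cdca8 of the same complex was at 0.39, the kinetochore gene Ndc80 at 0.37 and the kinetochore gene Cenpf at 0.35. The motor gene Cenpe, a kinesin whose symbol the naming rule does not reach, was at 273 and 419 CPM, with a ratio of 1.53 (1.502 to 1.565). Kifc1, a minus-end directed spindle motor, was at 122 and 123 CPM, with a ratio of 1.01 (0.975 to 1.04).

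General proliferation markers were split. Of 12 markers 6 were above 0 and 6 below, against 56.4% and 43.6% of all genes, with a median log2 fold of -0.00. Those above 0 included Cdk1 (0.28), the mitotic cyclin Ccnb1 (0.22) and Top2a (0.17), the last 2 chosen with their values known. The replication genes Pcna (-0.61), Mcm5 (-0.52) and Mcm2 (-0.25) and the transcription factor gene Mybl2 (-0.36) were below 0. Foxm1 (-0.25) and Mki67 (-0.05) were below 0 as well, so the split did not fall between replication genes and the rest. Mcm5 lies on chromosome 8, and Mcm2, Foxm1 and Mki67 were named after their values were seen. The part that the composition of cells in the cycle might play in these values was not tested. In bulk RNA, a different number of cells in a state cannot be told apart from a different amount of RNA per cell.

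**Figure D3:**
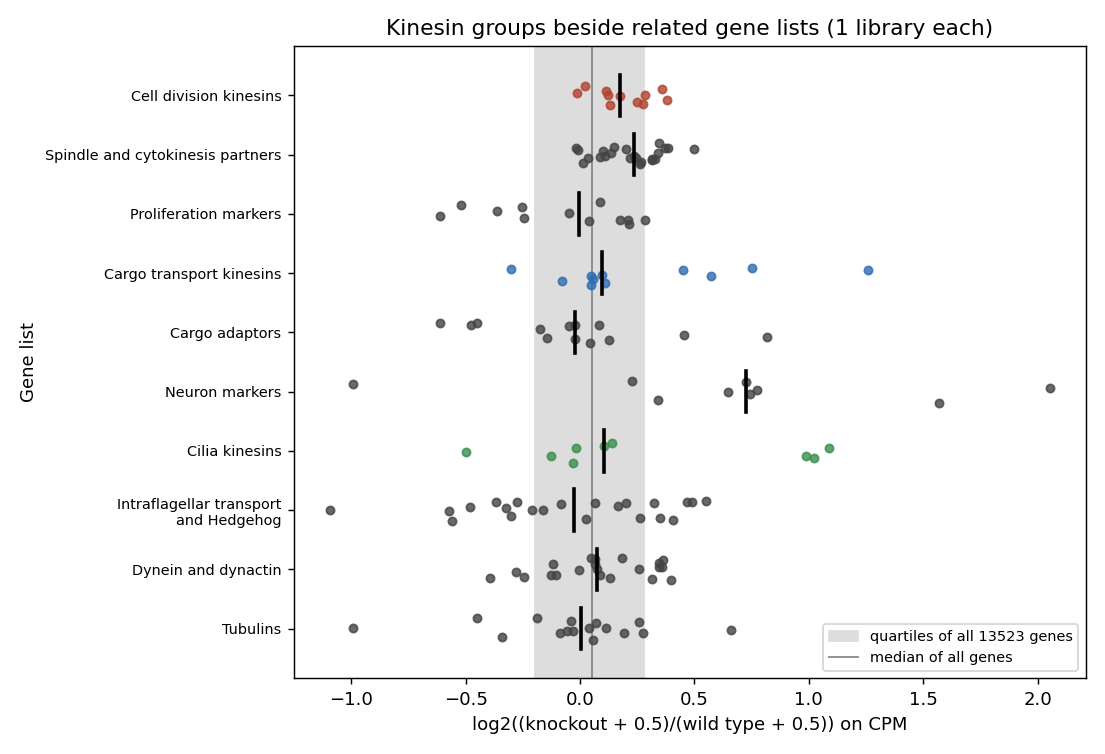
Log2 fold (knockout over wild type, CPM with 0.5 added) of each gene over the floor in the 3 main kinesin groups and 7 related lists, with each list's median as a black bar; the grey band spans the quartiles of all 13523 genes, -0.20 to 0.28. The division kinesins (median 0.18) and their partners (0.23) lie mostly right of the all-gene median, while neuron markers, 2 of which are over the floor through their knockout level alone, and a few transport and cilia kinesins lie further out.

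Among the 11 cargo transport genes, Kif1a, Kif21a, Kif5c and Kif5a had the highest knockout to wild-type ratios, from 2.40 down to 1.37. The other 7 had ratios from 0.810 to 1.08. Kif1a, which carries synaptic vesicle precursors along axons (chromosome 1, 94912033 to 94998442, mm9), was at 70.2 CPM in wild-type cells and 169 CPM in knockout cells. This corresponded to 3942 and 8785 read equivalents, so counting error is small. The ratio was 2.40 (2.31 to 2.50), and the log2 fold of 1.26 was the largest of all kinesin genes with the pseudocount of 0.5. Without a pseudocount the ratios of Kif6 (2.73) and Kif17 (2.59) were larger, on far fewer reads. Only 0.961% of all genes had a higher log2 fold, and among the 4123 genes averaging 50 to 500 CPM 0.388% were 2-fold higher or more. None of the 50 sampled exon windows of Kif1a matched another place in the genome, a count of 0. The nearest genes over the floor on either side, Capn10 (67507 bases away) and Sned1 (134031 bases away), had log2 folds of 0.34 and -0.85. These neighbours were taken by position after the value of Kif1a was seen.

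Kif1b and Kif1c, the closest relatives of Kif1a, were level. Kif1b, which carries mitochondria and vesicle precursors, was at 253 and 262 CPM, with a ratio of 1.03 (1.01 to 1.06). Kif1c, which moves vesicles in many cell types, was at 80.4 and 83.6 CPM, with a ratio of 1.04 (0.997 to 1.08). Per kilobase of exon, Kif1a made up 24.7% of the 3 genes in the wild-type and 43.2% in the knockout library, and became the most abundant of them. The Kif1a to Kif1b ratio, which does not depend on how the libraries are scaled, was 0.588 and 1.37, a change of 2.32-fold (2.22 to 2.43). Lengths are those of all annotated exons merged, so shares depend on which isoforms the cells use.

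Kinesin-1, the conventional transport motor, has 3 heavy chain genes, of which Kif5b is expressed in most cell types and Kif5a and Kif5c mainly in neurons. Kif5a was at 28.9 and 39.6 CPM, with a ratio of 1.37 (1.28 to 1.46). Kif5c was at 63.68 and 95.004 CPM, with a ratio of 1.49 (1.43 to 1.56). Kif5b was at 437 and 468 CPM, with a ratio of 1.07 (1.05 to 1.09). Kif5b remained the main heavy chain, at 81.7% of the 3 genes per kilobase in the wild-type and 76.7% in the knockout library, while Kif5c went from 12.3% to 16.1%. For Kif5b, 38% of the sampled exon windows were counted as shared with another place, most often on chromosome 2. Its level and these shares are therefore uncertain. The light chain genes, which tie kinesin-1 to its cargo, stood closer, from Klc1 at a log2 fold of 0.04 to Klc3 at 0.25.

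Kif21a, a motor that dampens microtubule growth and is abundant in neurons, was at 41.8 and 70.7 CPM, with a ratio of 1.69 (1.61 to 1.78). Its relative Kif21b, also abundant in neurons, was at 67.3 and 72.5 CPM, with a ratio of 1.08 (1.03 to 1.13). Per kilobase the pair was nearly equal in the wild-type library, with Kif21a at 50.8%, and Kif21a made up 61.9% in the knockout library. Their ratio changed 1.57-fold (1.47 to 1.68).

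The remaining transport genes were level or lower. Kif13a, which moves recycling endosomes, was at 129 CPM in wild-type cells and 104 CPM in knockout cells, 81.0% of the wild-type level (78.2 to 83.9%). Kif13b was at 130 and 123 CPM, or 94.7% (91.5 to 97.9%). The endosome motor gene Kif16b was at 37.0 and 38.3 CPM, with a ratio of 1.03 (0.972 to 1.10). The motor genes and the adaptors that load them did not move as a block. Of 13 cargo adaptor genes over the floor 5 were above 0 and 8 below, against 56.4% and 43.6% of all genes. Their median was -0.02, and 0 were beyond 2-fold, against 1.76% of all genes higher and 2.11% lower. Grip1, an adaptor that binds Kif5 heavy chains, was the highest at 0.82, and the adaptor gene Fez1 the lowest at -0.61.

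**Figure D4:**
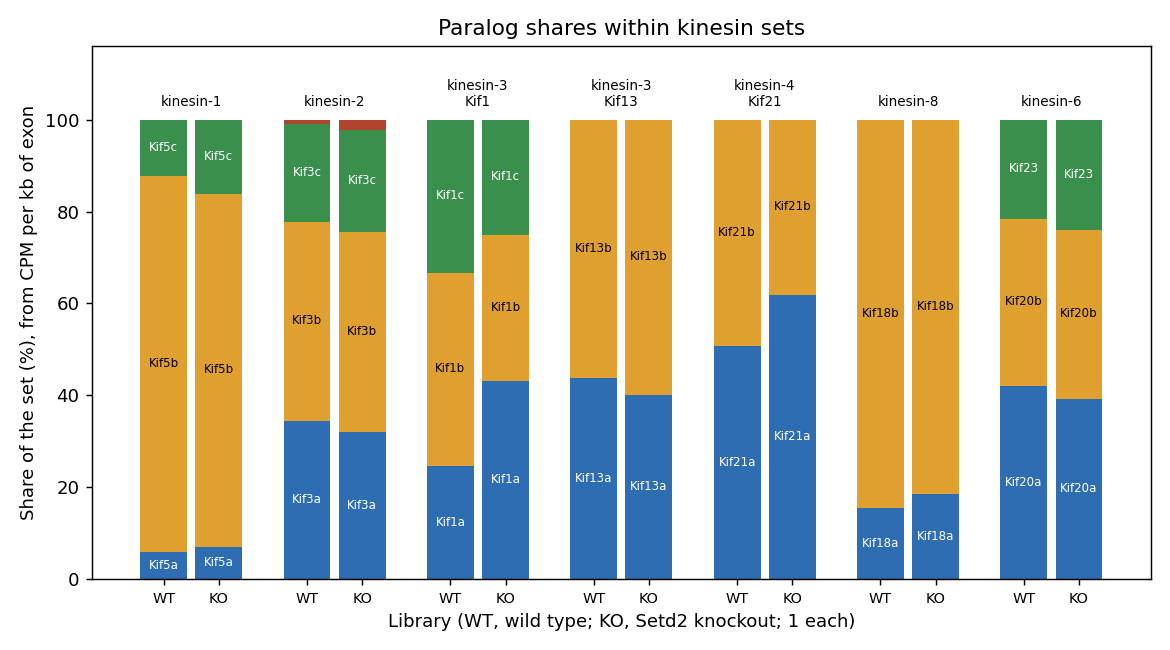
Share of each paralog (%) within 7 sets of related kinesin genes, from CPM per kb of exon, in the wild-type (WT) and Setd2 knockout (KO) libraries; the thin top segment of kinesin-2 is Kif17. Kif1a went from 24.7% to 43.2% of its set and Kif21a from 50.8% to 61.9%, while Kif5b went from 81.7% to 76.7% of kinesin-1.

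Most neuron markers were also above 0. Of 9 over the floor 8 were above 0, against 56.4% of all genes, and 2 were at least 2-fold higher, against 1.76%. Syt1 and Snap25, both counted as above 0, passed the floor through their knockout level alone. The neurofilament gene Nefm was at 2.31 and 11.2 CPM, a ratio of 4.82 (3.98 to 5.88). Syt1, a synaptic vesicle calcium sensor, was at 0.637 and 2.87 CPM, and Snap25, of the vesicle fusion machinery, at 0.666 and 1.43 CPM. The summed level of the 10 neuron markers with a row was 158 CPM in wild-type cells and 182 CPM in knockout cells, most of it Stmn2 at 82.5 and 96.8 CPM. Dcx, listed at 0 in wild-type cells, was at 0.0576 CPM in knockout cells, and Map2 and Rbfox3 had no row. Tubb3, on chromosome 8, was the marker below 0, at -0.99. The part of neuron-like cells in the levels of these kinesins was not tested. Fibroblast markers, which stand for feeder cells, were lower in sum, at 144 and 120 CPM, with 8 of 10 members below 0, against 43.6% of all genes, and Lum listed at 0 in the knockout library. Primitive endoderm markers were lower too, at 359 and 152 CPM in sum, with 6 of 10 members at least 2-fold lower, against 2.11% of all genes. Of these 10, Gata6, Sox7 and Amn passed the floor through their wild-type level alone.

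The 250 bases before the start of Kif1a and Kif17 are shown, the 2 kinesin genes with the highest log2 folds with the pseudocount. For Kif1a the CpG-rich promoter of its 2 in the table was taken, with 24 CpG pairs in 300 bases against 1 in the other. The other promoter of Kif1a holds TTTGAA 44 bases before its start. Neither sequence shown holds any of the 3 motifs on either strand, so both are in lower case throughout.
Kif1a (chr1:93101875-93102124, minus strand): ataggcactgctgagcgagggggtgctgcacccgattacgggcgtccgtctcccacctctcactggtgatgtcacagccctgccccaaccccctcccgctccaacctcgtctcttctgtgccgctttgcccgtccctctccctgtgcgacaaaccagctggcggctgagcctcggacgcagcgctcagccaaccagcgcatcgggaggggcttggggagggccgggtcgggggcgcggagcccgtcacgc
Kif17 (chr4:138262001-138262250, plus strand): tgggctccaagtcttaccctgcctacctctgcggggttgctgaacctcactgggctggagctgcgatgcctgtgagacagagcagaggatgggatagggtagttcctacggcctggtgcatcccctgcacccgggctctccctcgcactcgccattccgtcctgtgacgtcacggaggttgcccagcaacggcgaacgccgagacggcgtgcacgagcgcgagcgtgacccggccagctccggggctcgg
Both are from the GRCm38.p6 build.

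Cilia kinesins split by level. The core motor of intraflagellar transport, made of Kif3a and Kif3b, was level, and 4 of the 5 low cilia genes stood further apart. Kif3a was at 56.0 and 55.3 CPM, with a ratio of 0.988 (0.939 to 1.04). Kif3b was at 67.5 and 72.5 CPM, with a ratio of 1.07 (1.03 to 1.12). Kif3c, an alternative partner of Kif3a that is abundant in neurons, was at 40.8 and 45.0 CPM, with a ratio of 1.10 (1.04 to 1.17). For Kif3c 24% of sampled windows matched another place and 17.1% of exon bases lie under exons of 1110002L01Rik on the opposite strand, so its level is uncertain. Kifap3, the accessory subunit of the Kif3 motor, was at 98.0 and 117 CPM, with a ratio of 1.196 (1.153 to 1.240). Kif24, which holds back cilium growth by trimming centriolar microtubules, was at 44.8 and 43.9 CPM, with a ratio of 0.979 (0.924 to 1.04).

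Kif17, the homodimeric motor of kinesin-2 (chromosome 4, 137818166 to 137857888, mm9), was at 1.21 CPM in wild-type cells and 3.14 CPM in knockout cells, from 67.9 and 163 read equivalents. Its ratio was 2.59 (1.94 to 3.48). The row starts 11816 bases inside the annotated gene, so any reads over the first part of the gene may be missing from it. Kif6, a motor of motile cilia (chromosome 17, 49754497 to 50049172), was at 0.772 and 2.09 CPM, from 43.3 and 109 read equivalents, with a ratio of 2.73 (1.90 to 3.99). Kif27, a relative of the Hedgehog regulator Kif7 that acts in motile cilia, was at 2.78 and 6.00 CPM, a ratio of 2.16 (1.77 to 2.63). Its log2 fold of 0.99 with the pseudocount put it just below the 2-fold threshold, and exons of Gm16613 on the opposite strand cover 7.44% of its exon bases. For Kif17 and Kif6 the lower end of the interval was under 2-fold. Among all 2671 genes averaging 1 to 5 CPM, 4.87% were higher by 2-fold or more.

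The other 2 low cilia genes were not higher. Kif9, a motor of the sperm and cilium axoneme, was at 3.08 and 2.78 CPM, or 90.4% of the wild-type level (72.0 to 113%). Among genes over the floor Setd2 is the next after Kif9, with 23453 bases between its end and the start of Setd2. Kif19a, which sets the length of cilia by depolymerising microtubules at their tips, was at 1.87 and 1.17 CPM, or 62.7% (44.9 to 86.7%). The low cilia genes therefore did not move in 1 direction, and the median of the 9 cilia kinesins was 0.10.

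The wider cilia machinery was mixed. Of 22 intraflagellar transport and Hedgehog genes, 11 were above 0 and 11 below, against 56.4% and 43.6% of all genes. Their median was -0.03. Hedgehog genes made up the low end. The target gene Gli1 was at 33.3 and 15.3 CPM, or 46.1% (42.4 to 50.1%). It was the only gene of the list beyond 2-fold, against 1.76% of all genes higher and 2.11% lower. The signal transducer gene Smo was at -0.57, the transcription factor gene Gli2 at -0.56 and the receptor gene Ptch1 at -0.48, the last named after its value was seen. At the high end was Ttc21b, a retrograde transport subunit gene, at 0.55. Dynein and dynactin genes, the motor complex that runs against most kinesins, had a median of 0.07 over 21 genes, with Dync1i2 the highest at 0.40. Of these 21 genes 0 were beyond 2-fold, against 1.76% of all genes higher and 2.11% lower. Tubulin genes, the track itself, had a median of 0.01 over 16 genes, with Tubb3 at -0.99 and Tubb4 at 0.66.

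The last genes belong to none of the 3 groups. Kif26a (chromosome 12, 113384419 to 113419958), an atypical kinesin without motor activity, was at 26.7 CPM in wild-type cells and 16.6 CPM in knockout cells. At 62.4% of the wild-type level (57.3 to 67.8%) it had the lowest log2 fold of all 33 genes over the floor, -0.67, and 5.18% of all genes were lower still. Kif2a, a microtubule depolymerase active both in spindles and in neurons, was at 126 and 137 CPM, with a ratio of 1.09 (1.05 to 1.12). For Kif2a 20% of windows matched another place and 17.4% of exon bases lie under exons of Dimt1 on the opposite strand. Kif12 was listed at 0 in wild-type cells, with 0.921 read equivalents in knockout cells. Outside the naming rule, Kifc3, a minus-end directed motor at cell junctions, was at 69.4 and 25.3 CPM, or 36.4% (34.1 to 38.7%). Kifc3 lies on chromosome 8, whose genes had the low median given above.

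Kif4b, the last of the 35, is carried in the RefSeq gene table as Kif4-ps, a transcribed pseudogene copy of Kif4. The GENCODE gene model used for its exon length, a single exon block, is instead labelled protein coding. Kif4b had 8 read equivalents in wild-type cells and 7 in knockout cells, both far below the floor. The copy can be told from Kif4 by its bases. Stretches of 76 bases of Kif4 were kept only if they aligned without gaps at 15 or fewer differences. This cut bounds the range and the median from above. Over the 19 stretches kept, 3 to 15 bases differed, with a median of 13, and 0 had 2 or fewer differences. A stretch with 13 differences is shown from the NCBIM37 assembly, plus strand, with the differing bases in capitals.
Kif4 (chrX:97829178-97829253): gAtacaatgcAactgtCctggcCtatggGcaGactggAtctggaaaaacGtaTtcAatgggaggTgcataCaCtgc
Kif4b (chr12:102384059-102384134): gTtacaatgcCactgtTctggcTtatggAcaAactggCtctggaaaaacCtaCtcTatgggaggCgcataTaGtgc
None of the 50 sampled windows of Kif4 or of Kif4b matched another place with at most 2 mismatches, a count of 0 for each.

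Over the 33 genes, size and level did not order the signed folds. Whether they order the size of the folds regardless of sign was not examined. Spearman's rho between the log2 fold and the length of the row was 0.11, with exon length -0.01 and with mean CPM 0.01, over 33 genes that share the 2 libraries. Over all 13523 genes the values for row length and mean CPM were 0.05 and -0.06.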

How the data were processed

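Total RNA of 1 wild-type and 1 Setd2 KO culture was sequenced. The tools named in the submitters' processing notes are CASAVA 1.6.0 and TopHat 1.0.13, and the build is mm9, with no role or order. The deposited values are headed RPKM but behave as log2(x + 1), with x the sequenced bases over a gene in units of 76, called read equivalents: 85.9% and 85.7% of values of x under 200 in the wild-type and knockout library were whole multiples of 1 base within 0.05. How the authors reached these log2 values, and how they treated strand and multiply aligned reads, are not given in the sources used here. There were 0 further value columns.

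The log2 was undone and read equivalents were scaled to 1000000 per library (CPM). Genes averaging at least 1 CPM were compared with a pseudocount of 0.5 and a 2-fold threshold. No p-value was computed. All kinesin genes could be named, with list members at least 2-fold apart or among the 4 largest folds of a list; others are marked, and Pou5f1, Sox2, Ddx3y, Stmn2, Klc1, Kifc1, Snap25, Amn, Sox7 and markers at 0 were likewise named after their values were seen. Kinesin genes and lists were chosen with earlier results of these data known.

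Exons came from GENCODE vM1 (NCBIM37, the assembly of mm9), where all 35 genes had a model. Exon windows of 76 bases, 50 per gene, were aligned with minimap2 2.31 and counted as shared with another place at up to 2 mismatches, or if not placed at their own. The procedure was tested on simulated data with counting noise only, which do not cover differences between cultures. Other settings tried were a pseudocount of 0.1 or 1, no floor or a floor of 5 CPM, 1.5-fold and 3-fold thresholds, 3 rescalings, summed rows and leaving out chromosome 8.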

Additional observations from a re-analysis of the deposited data

How the results depend on the processing

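No paired analysis was possible because each genotype has 1 library; for the same reason none was left out. Of 67 recomputed counts and medians, 52 stayed within 1.5 times the reported value. Part of this was fixed in advance. Summing rows could not change a kinesin value, since each kinesin gene is on a single row. Leaving out chromosome 8 could not either, since 0 kinesin genes and 0 of the spindle partners lie there. The other floors kept the same 11 division genes, 11 cargo transport genes and 23 partners, so those medians could not move. The count of kinesin genes at least 2-fold higher, 3 as reported, was 1 at pseudocount 1 and likewise 1 at a floor of 5 CPM, Kif1a in both cases. It was 4 with a pseudocount of 0.1, which adds Kif27. At 1.5-fold 5 genes were higher and 1 (Kif26a) lower, against 7.42% and 6.77% of all genes, and at 3-fold 0 were higher. Each of the 3 rescalings gave 2 higher genes, without Kif6. They shifted all genes by 0.04 to 0.06 on the log2 scale. Centring on the median ratio gave a median log2 fold of 0.0680 for all kinesin genes, 0.0472 for cargo transport and 0.0520 for cilia genes. The median of all genes was then 0.0016. The trimmed mean gave 0.0575, 0.0367 and 0.0417, and 0.114 for division genes, against -0.0085 for all genes. Matching upper quartiles gave 0.0629 for cargo transport and 0.0677 for cilia genes, against 0.0170 for all genes. A floor of 5 CPM gave 0.0425 for the 4 cilia genes left, against 0.0483 for all genes. The rescalings also turned Kif15, Kif16b, Kif1b or Kif1c, all within 0.06 of 0, to the other side of 0 in at least 1 of them. The split of higher and lower among all genes went from 238 and 285 as reported to 207 and 317 after centring on the median ratio, 200 and 326 under the trimmed mean, and 331 and 331 at pseudocount 0.1. Depth limits Kif17, Kif6, Kif19a and Kif9, whose intervals are the widest of the genes over the floor.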
